A study of Homo sapiens with 4 samples.

Results

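Matrix metalloproteinases (MMPs) and the tissue inhibitors of metalloproteinases (TIMPs) were examined in ES2 cells, an established human ovarian cancer cell line, treated with liquiritigenin (Liq), a plant flavanone that the study uses as an agonist of estrogen receptor beta. The 10 genes were chosen by symbol out of 23228 genes in the count tables, and comprised 7 MMPs and 3 TIMPs. They were the membrane-type enzymes MMP14, MMP15, MMP17 and MMP24, the gelatinase MMP2, the secreted enzymes MMP11 and MMP19, and the inhibitors TIMP1, TIMP2 and TIMP3. Control cells received vehicle and treated cells received 100 µM Liq, both for 24 h, with 2 samples per group, and cells of both groups were kept in medium without phenol red and with charcoal-treated serum. Total RNA was sequenced and the reads were counted per gene. The labels do not say whether the 2 samples of a group came from separate cultures, so the p-values measure only the spread between these samples, which may be technical.

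MMPs are zinc-dependent proteases that cut collagens, laminins, growth factor precursors and cell surface proteins. Most are made as inactive precursors, and their activity in tissue is set by transcription, by removal of the propeptide and by TIMPs, which occupy the active site. Membrane-type MMPs are held at the cell surface, MMP14, MMP15 and MMP24 by a transmembrane segment and MMP17 by a lipid anchor. MMP14 degrades fibrillar collagen around invading cells and activates the MMP2 precursor, a step in which TIMP2 serves as the bridge between both enzymes. For this reason the level of TIMP2 relative to MMP14 is a measured quantity of interest in invasive cancers.

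The libraries held 34573053 to 48933893 counted reads, at which 3 counts correspond to 0.0598 to 0.0844 CPM (the count of a gene relative to the total of its library after scaling). ES2 is a cell line of mixed character in these data. Among epithelial and ovarian carcinoma markers, KRT19, EPCAM, CDH1 and MUC16 had at most 3 counts in every sample, whereas KRT7 stood at 251.8 ± 19.5 CPM (SD, n = 2) and the mesenchymal marker VIM at 7479 ± 178 CPM (SD, n = 2) in control cells. With Liq, KRT7 was higher (log2 fold change 0.51) and PAX8 (-1.34), WT1 (-0.68) and KRT18 (-0.24) were lower at an adjusted p-value under 0.05. KRT8 (0.13) did not pass. By this rule, 12.6% of all tested genes were higher and 11.3% were lower. The part of these marker changes in the changes of the MMPs and TIMPs was not tested. Of 4 leukocyte markers, PTPRC, CD3E and CD79A had at most 3 counts per sample, while CD68, which encodes a lysosomal protein, stood at 71.0 CPM in control and 71.9 CPM in Liq. ESR2, which encodes estrogen receptor beta, had 4 and 7 counts in the control samples and 5 and 14 in the Liq samples and was below the filter for testing. In bulk RNA, a smaller share of cells that express a gene and less RNA per cell cannot be told apart.

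Of the 10 genes, 5 differed between Liq and control at a Benjamini-Hochberg adjusted p-value under 0.05 in edgeR's quasi-likelihood test over 13546 genes. MMP14, TIMP1 and TIMP3 were lower and MMP11 and MMP17 were higher with Liq, while MMP2, MMP15, MMP19, MMP24 and TIMP2 did not pass. Among all tested genes, 11.3% were lower and 12.6% were higher by the same rule, together 24%. With a fold change of at least 1.5 added to the rule, MMP11 and MMP17 were called higher and 0 of the 10 were called lower, against 4.29% and 2.16% of all tested genes, or 6.45% in either direction. At a fold change of at least 2, 0 of the 10 were called, against 2.42% of all tested genes. The median log2 fold change of the 10 genes was 0.02, and that of all tested genes was 0.01. The median size of the change, without its sign, was 0.43 in the 10 genes and 0.16 in all tested genes. In 5 of the 10 genes both Liq samples were above both control samples and in 4 both were below, whereas 31.5% and 30.2% of all tested genes were separated in this way, or 61.7% together. The members were chosen with earlier results of these data known, so their counts are descriptions.

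**Figure D1:**
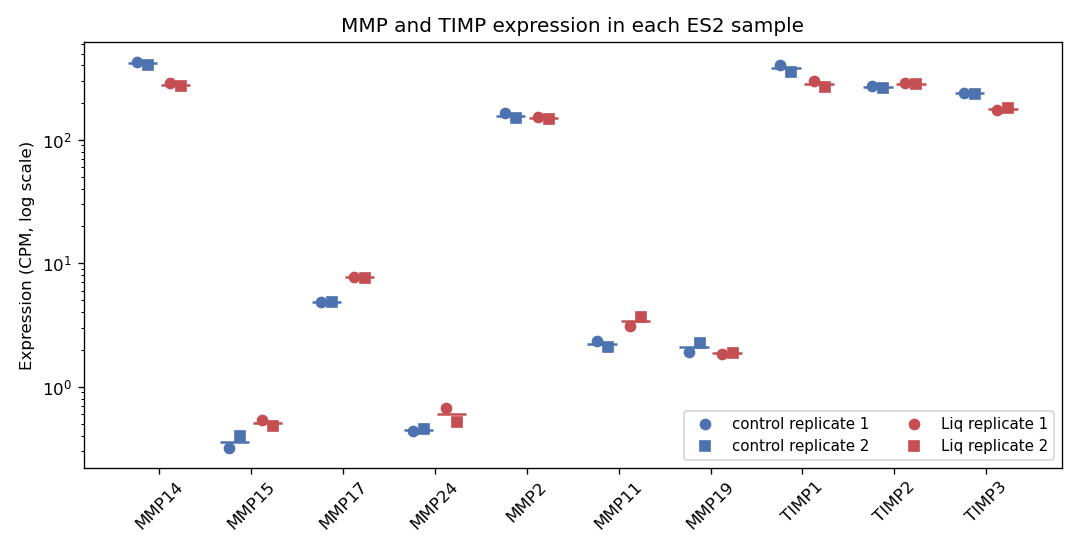
Expression of the 10 genes in each sample, in CPM on a log scale, with control samples in blue and Liq samples in red, circles for replicate 1, squares for replicate 2, and bars for the group means. MMP14, MMP2 and the 3 TIMPs lie above 100 CPM and the other 5 genes below 10 CPM, and for MMP14 both Liq samples lie below both control samples.

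The promoters of the genes that changed are shown because MMP14, TIMP1 and TIMP3 were lower and MMP11 was higher with Liq. RefSeq promoter sequences (GRCh38.p14) were matched for 6 of the 10 genes, leaving MMP2, MMP17, MMP19 and TIMP2. Each sequence below covers the 250 bases before the annotated start on the plus strand, with matches to the GC box GGGCGG, read on both strands, in capitals. The windows are chr14:22836335-22836584 for MMP14, chrX:47582186-47582435 for TIMP1, chr22:32801455-32801704 for TIMP3 and chr22:23772599-23772848 for MMP11.
MMP14 promoter: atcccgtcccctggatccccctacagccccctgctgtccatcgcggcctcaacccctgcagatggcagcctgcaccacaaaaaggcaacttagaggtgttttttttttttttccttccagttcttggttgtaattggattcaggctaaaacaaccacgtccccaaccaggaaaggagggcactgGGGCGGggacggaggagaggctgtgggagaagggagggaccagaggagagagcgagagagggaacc
TIMP1 promoter: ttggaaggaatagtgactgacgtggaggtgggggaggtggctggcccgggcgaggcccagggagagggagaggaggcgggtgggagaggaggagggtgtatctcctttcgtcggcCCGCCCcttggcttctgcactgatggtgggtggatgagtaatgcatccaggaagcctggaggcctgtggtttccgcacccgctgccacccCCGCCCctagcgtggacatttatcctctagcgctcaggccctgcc
TIMP3 promoter: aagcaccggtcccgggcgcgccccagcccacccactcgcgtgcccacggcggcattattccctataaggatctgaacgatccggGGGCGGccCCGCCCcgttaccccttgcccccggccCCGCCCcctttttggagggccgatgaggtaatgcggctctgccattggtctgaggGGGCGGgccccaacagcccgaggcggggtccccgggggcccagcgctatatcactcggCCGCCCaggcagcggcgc
MMP11 promoter: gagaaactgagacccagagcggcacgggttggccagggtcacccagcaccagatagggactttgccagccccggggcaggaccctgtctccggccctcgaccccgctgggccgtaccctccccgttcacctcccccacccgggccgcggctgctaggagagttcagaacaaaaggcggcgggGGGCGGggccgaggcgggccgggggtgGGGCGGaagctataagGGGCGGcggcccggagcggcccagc
The MMP14 window held 1 GC box match and the least GC, 56.8%, against a median of 58% over 35116 promoters. TIMP1 held 2 matches, MMP11 held 3 and TIMP3 held 5, in windows of 64.8%, 73.2% and 72.4% GC. Of all promoter windows of this length, 42.6% held at least 1 GC box match. The exact AP-1 motif TGANTCA was absent from the windows of all 6 matched genes and present in 6.57% of all windows. Variants of it were not searched for, such as tgagtaa in the TIMP1 window, so its absence does not mean that an AP-1 site is missing. The pattern GGGNNNNNCC, a loose form of the NF-κB site, had 1 match in MMP14, 3 in TIMP1, 6 in MMP11 and 10 in TIMP3, and 54.4% of all windows held at least 1. The estrogen response half-site GGTCA was found once in MMP11 and in MMP15, in none of the other 4 windows, and in 32.6% of all windows. Matches on both strands were counted and could overlap each other, and a match is a description of letters and not of binding.

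MMP14, the membrane collagenase and activator of the MMP2 precursor, had the largest decrease of the 10 genes. It lies on chromosome 14 from 23305769 to 23318250 (GRCh37, plus strand), and its main transcript has 10 exons. It was expressed at 429.1 and 401.8 CPM in the control samples and at 286.3 and 270.7 CPM in the Liq samples. The lower control sample was above the higher Liq sample, and the gap between the groups exceeded the gap within either group. On the log2 scale MMP14 fell by 0.58 with an SE of 0.07 and a 95% interval of -0.71 to -0.44 (adjusted p = 3.76e-07, edgeR). This was a decrease of 1.49-fold, just under the 1.5-fold threshold, which it passed without Liq replicate 1 (-0.62) and without control replicate 2 (-0.62). Its adjusted p-value was under 0.05 in all 10 alternatives, in which the log2 fold change ranged from -0.62 to -0.49.

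MMP17, the membrane-type enzyme with a lipid anchor, moved the other way. On chromosome 12 from 132312938 to 132336328 (GRCh37, plus strand), it had 199 and 182 counts in the control samples and 276 and 381 in the Liq samples. These were 4.84 and 4.86 CPM in control and 7.76 and 7.59 CPM in Liq, so the replicates of each group nearly coincided. MMP17 rose by 0.66 on the log2 scale with an SE of 0.13 (adjusted p = 0.000492, edgeR), an increase of 1.58-fold. With loess offsets, which let the scaling of the libraries follow the expression level, the log2 fold change was 0.55 (adjusted p = 0.0035 from edgeR), below 1.5-fold. Among the 4001 tested genes with a mean level under 10 CPM, where MMP17 and MMP11 lie, the median log2 fold change was 0.17 and 11.5% were called higher by at least 1.5-fold, against 1.25% of the 9545 genes at higher levels. The part of this level-dependent shift in the increase of MMP17 and MMP11 was not tested beyond the loess setting.

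MMP15 and MMP24, the other transmembrane enzymes among the 10 genes, were close to the limit of these libraries. MMP15 (chromosome 16 from 58059658 to 58080805) had 13 and 15 counts in control and 19 and 24 counts in Liq. MMP24 (chromosome 20 from 33814493 to 33864801) had 18 and 17 counts in control and 24 and 26 counts in Liq. Both genes were higher in both Liq samples, yet counting error alone was wide at this depth. The 13 counts of MMP15, for example, had an exact Poisson 95% interval of 6.92 to 22.2 counts, which covers counting error only. The log2 fold changes were 0.49 (95% interval -0.30 to 1.28) for MMP15 and 0.39 (-0.34 to 1.13) for MMP24, with adjusted p-values of 0.383 and 0.459 from edgeR. Both intervals included no change as well as an increase of 1.5-fold, so neither could be left out with these counts and 2 samples per group. MMP24 is also overlapped on the opposite strand by MMP24OS, with 806 shared exon bases, and the strand setting of the counting is not given in the sources used here.

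Per length of the main transcript, MMP14 made up 95.6% to 96.2% of the summed level of the 6 membrane-type MMPs in control samples and 92.8% to 93.1% in Liq samples. The share of MMP17 was 1.67% and 1.78% in control and 3.88% and 3.99% in Liq. The summed level of these 6 genes was 120.5 and 113.5 RPKM (CPM per kilobase of transcript) in control samples and 83.1 and 78.8 RPKM in Liq samples. The sum therefore followed MMP14. The remaining membrane-type genes MMP16, at 27.3 ± 2.5 CPM in control and 23.4 ± 1.5 CPM in Liq (SD, n = 2), and MMP25, at 0.705 ± 0.137 and 0.853 ± 0.107 CPM (SD, n = 2), did not pass the test (adjusted p = 0.0971 and 0.562 from edgeR).

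**Figure D2:**
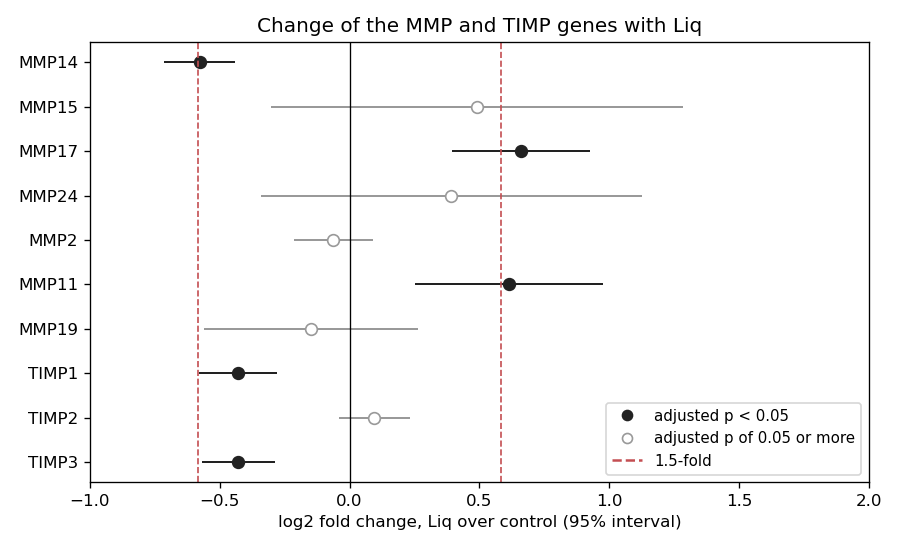
log2 fold change of Liq over control for each gene with its 95% interval from edgeR, where filled points have an adjusted p-value under 0.05 and dashed lines mark 1.5-fold. MMP14 sits at -0.58, TIMP1 and TIMP3 at -0.43, and MMP17 and MMP11 at 0.66 and 0.61, while the intervals of MMP15 and MMP24 span more than those of the other genes.

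MMP2, the gelatinase that degrades type IV collagen and whose precursor MMP14 activates, did not follow MMP14. MMP2 lies on chromosome 16 from 55423612 to 55540603 (GRCh37, plus strand). It was expressed at 165.1 and 149.1 CPM in control and at 154.3 and 146.7 CPM in Liq, and the groups overlapped. The log2 fold change was -0.06 with a 95% interval of -0.21 to 0.09 (adjusted p = 0.578 from edgeR), which leaves out a change of 1.5-fold in either direction in these samples. The sign of this value was not stable, since loess offsets gave 0.0015 and the fit without control replicate 1 gave 0.013. The other gelatinase, MMP9, had 2, 2, 1 and 0 counts and was not tested.

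The secreted enzymes differed from each other. MMP11, called stromelysin 3 in older work and cleaved by furin inside the cell, lies on chromosome 22 from 24110413 to 24126503 (GRCh37, plus strand). It had 96 and 79 counts in control and 111 and 183 counts in Liq, or 2.33 and 2.11 CPM against 3.12 and 3.65 CPM. Both Liq samples were above both control samples, and Liq replicate 2 was the higher one. MMP11 rose by 0.61 on the log2 scale with an SE of 0.18 (adjusted p = 0.0124, edgeR), an increase of 1.53-fold. The adjusted p-value rose above 0.05 with the DESeq2 Wald test (0.109), with loess offsets (0.0774), without Liq replicate 2 (0.0872) and without control replicate 2 (0.119), and the log2 fold change was 0.45 to 0.71 over all 10 alternatives. CHCHD10, on the minus strand from 24108021 to 24110159, lies closest to the MMP11 start. It had a log2 fold change of 0.22 and did not pass the test (adjusted p = 0.128 from edgeR). SMARCB1, a neighbour on the other side of MMP11 and a subunit of a chromatin remodelling complex, was lower with Liq (log2 fold change -0.50, adjusted p = 2.5e-05 from edgeR).

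MMP19, a secreted enzyme with activity on basement membrane proteins, lies on chromosome 12 from 56229217 to 56236750 (GRCh37, minus strand). It had 78 and 85 counts in control and 66 and 95 in Liq, or 2.08 ± 0.26 CPM against 1.87 ± 0.03 CPM (SD, n = 2). The Liq samples were only just below the lower control sample. The log2 fold change was -0.15 with a 95% interval of -0.56 to 0.26 (adjusted p = 0.639 from edgeR). Of its exon bases, 821 are shared with the transcribed pseudogene TMEM198B on the opposite strand.

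**Figure D3:**
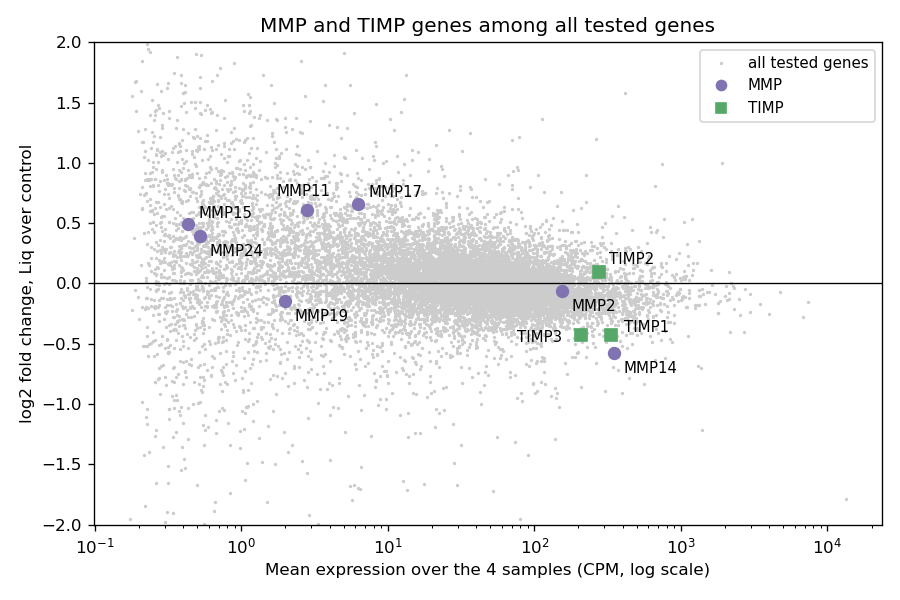
log2 fold change of Liq over control against the mean expression over the 4 samples (CPM, log scale), for all tested genes in grey, the 7 MMPs as circles and the 3 TIMPs as squares; 41 tested genes lie beyond the plotted range of the vertical axis. MMP15, MMP24, MMP11 and MMP17 lie at low expression and above 0, and MMP14, TIMP1, TIMP3 and MMP2 lie at high expression and below 0. MMP19 lies at low expression and below 0, and TIMP2 at high expression and above 0. MMP2, MMP15, MMP19, MMP24 and TIMP2 did not pass the test.

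Among the inhibitors, TIMP1 and TIMP3 decreased and TIMP2 did not pass the test. TIMP1, a broad inhibitor that binds poorly to MMP14, lies on chromosome X from 47441807 to 47446188 (GRCh37, plus strand). It was expressed at 403.6 and 356.5 CPM in control and at 298.6 and 265.6 CPM in Liq. The groups did not overlap, although the replicates of TIMP1 differed from each other more than those of TIMP2 and TIMP3. TIMP1 fell by 0.43 on the log2 scale with an SE of 0.07 (adjusted p = 9.78e-05, edgeR), and leaving out single samples moved it between -0.52 and -0.34.

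TIMP3, the inhibitor that binds to the matrix and also acts on ADAM proteases, lies on chromosome 22 from 33197691 to 33259028 (GRCh37, plus strand). It was expressed at 240.1 and 234.9 CPM in control and at 173.1 and 179.7 CPM in Liq. Replicates lay close together and the groups were well apart. TIMP3 fell by 0.43 on the log2 scale with an SE of 0.07 (adjusted p = 4.48e-05, edgeR). The change stayed between -0.46 and -0.35 in the 10 alternatives. The decreases of TIMP1 and TIMP3 were 1.35-fold each, so neither reached 1.5-fold, and both had adjusted p-values under 0.05 in all 10 alternatives.

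TIMP2, the inhibitor that links MMP14 to the MMP2 precursor, lies on chromosome 17 from 76849059 to 76921469 (GRCh37, minus strand). It was expressed at 270.7 and 262.8 CPM in control and at 288.3 and 281.6 CPM in Liq. Both Liq samples were above both control samples by a small margin. The log2 fold change was 0.10 with a 95% interval of -0.04 to 0.23 (adjusted p = 0.318 from edgeR). TIMP4 had 0 counts in every sample.

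TIMP1 and TIMP3 each lie inside a synapsin gene, TIMP1 in SYN1 and TIMP3 in SYN3, both on the opposite strand and with 0 shared exon bases. SYN1 had 8 to 20 counts per sample and SYN3 had 1 or 2, against at least 6156 counts of either TIMP in every sample. Reads from the synapsin genes were thus few beside those of the inhibitors they surround. Within TIMP2 lies CEP295NL, on the same strand and with 224 shared exon bases, which is not among the genes of the count tables. A long noncoding RNA gene without a symbol, on the opposite strand, shares 367 exon bases with TIMP2.

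Per length, TIMP1 was the most abundant of the 10 transcripts in every sample, at 494 ± 43 RPKM in control and 367 ± 30 RPKM in Liq (SD, n = 2). In control cells MMP14 followed at 112.2 ± 5.2 RPKM, then TIMP2 at 73.0 ± 1.5, TIMP3 at 51.7 ± 0.8 and MMP2 at 44.7 ± 3.2 RPKM (SD, n = 2). In Liq cells TIMP2, at 78.0 ± 1.3 RPKM, and MMP14, at 75.3 ± 3.0 RPKM (SD, n = 2), had overlapping samples, followed by MMP2 at 42.8 ± 1.5 and TIMP3 at 38.4 ± 1.0 RPKM (SD, n = 2). MMP17, MMP11 and MMP19 came next in both groups, between 0.579 and 3.18 RPKM on average, and MMP24 and MMP15 were last, at 0.0882 to 0.136 RPKM. MMP24 and MMP15 overlapped in the Liq samples. Dividing by the union of all annotated exons instead kept TIMP1 in the first place in both groups and placed MMP14 above TIMP2 in Liq cells, at 60.2 against 45.9 RPKM with no overlap. It also placed TIMP3 above TIMP2 in control cells and TIMP3 above MMP2 in Liq cells, and gave overlapping levels of MMP19 and MMP11 in control cells.

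**Figure D4:**
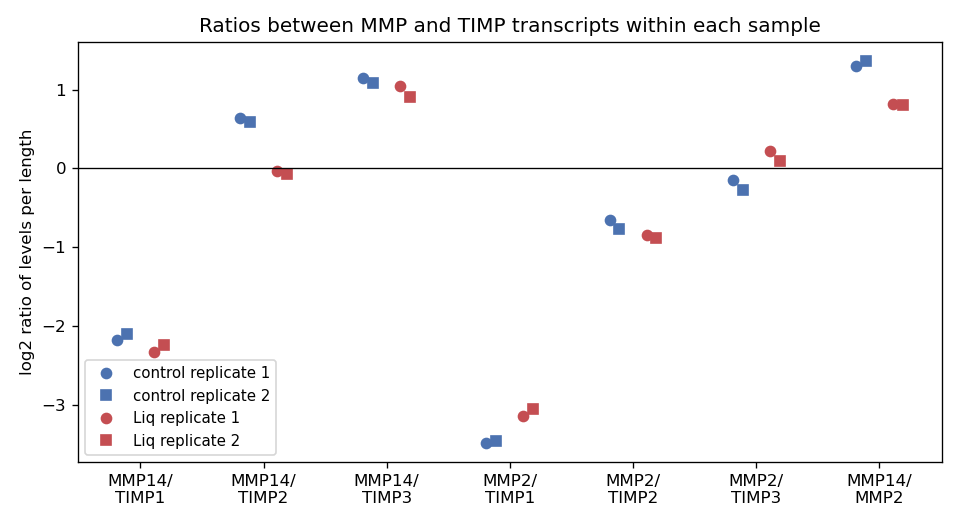
log2 ratio between the levels per length of 2 transcripts within each sample, with control samples in blue, Liq samples in red, circles for replicate 1 and squares for replicate 2. MMP14/TIMP2 moved from above 1.5 to just under 1 on the linear scale with the length of the main transcript, and MMP2/TIMP1 and MMP2/TIMP3 moved up.

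Ratios within a sample do not depend on how libraries were scaled against each other. The ratio of MMP14 to TIMP2 transcripts per length was 1.56 and 1.51 in the control samples and 0.980 and 0.948 in the Liq samples. When the union of all exons served as the length, MMP14 stayed above TIMP2 in both groups. The groups differed by -0.67 on the log2 scale, the largest difference of the 7 ratios computed. The length cancels from this difference because it is the same in every sample. The ratio of MMP14 to MMP2 was 2.47 and 2.56 in control and 1.76 and 1.75 in Liq, a log2 difference of -0.52. Both sets of Liq samples lay below both control samples, by more than the replicates differed from each other.

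Against TIMP1 and TIMP3, which decreased along with it, the MMP14 ratio differed less. MMP14 to TIMP1 was 0.221 and 0.234 in control and 0.199 and 0.212 in Liq, and MMP14 to TIMP3 was 2.22 and 2.12 in control and 2.05 and 1.87 in Liq, a log2 difference of -0.15 for each. MMP2 to TIMP1 was 0.0895 and 0.0915 in control and 0.113 and 0.121 in Liq, and MMP2 to TIMP3 was 0.900 and 0.830 in control and 1.17 and 1.07 in Liq, a log2 difference of 0.37 for each. MMP2 to TIMP2 differed by -0.16. In all 7 ratios the groups did not overlap, but with 2 samples against 2 the exact two-sided permutation test cannot give a p-value below 0.333, which was the value for each ratio. The ratios share genes and are not independent of each other.

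The composition of the inhibitor transcripts differed between the groups. TIMP1 made up 80.6% and 79.0% of the summed level per length of the 3 TIMPs in control and 76.9% and 74.8% in Liq. The share of TIMP2 was 11.4% and 12.3% in control and 15.6% and 16.7% in Liq. The share of TIMP3 ranged from 7.46% to 8.71% over the 4 samples, and the groups overlapped.

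Of the 16 other MMPs on a fixed list, which holds MMP11 and MMP19 as well, 4 had enough counts for a test. MMP1, the interstitial collagenase, fell from 20718 and 20920 CPM in control to 5976 and 6106 CPM in Liq, and MMP3, stromelysin 1, from 30.5 and 28.1 CPM to 13.0 and 12.6 CPM. The log2 fold changes were -1.79 (adjusted p = 2.64e-20 from edgeR) and -1.19 (adjusted p = 9.88e-10 from edgeR). None of the 10 members had a log2 fold change as large as either of them. The MMP1 transcript took up 2.01% and 2.05% of the gene counts in control and 0.615% and 0.626% in Liq.

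Further inhibitors were listed with the TIMPs. Of 8 tested genes on this list of 11, 4 were lower and 1 was higher at an adjusted p-value under 0.05, counting TIMP1 and TIMP3. Among all tested genes, 11.3% were lower and 12.6% were higher at this threshold. TFPI2, a serine protease inhibitor of the matrix, fell from 178.8 ± 2.3 to 97.9 ± 12.4 CPM (SD, n = 2), which was -0.87 on the log2 scale (adjusted p = 6.9e-09, edgeR). THBS2, a matrix protein that promotes clearance of MMP2, fell from 42 and 31 counts in control to 16 and 20 counts in Liq (adjusted p = 0.0119 from edgeR). RECK, a membrane-anchored inhibitor of MMP14 and MMP2, was the one that rose, from 13.4 ± 0.5 to 18.0 ± 0.9 CPM (SD, n = 2), which was 0.43 on the log2 scale (adjusted p = 0.00274, edgeR).

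Among 4 tested genes of proteolytic activation, the convertases FURIN and PCSK7 did not pass the test, while PLAU and PLAUR, which encode urokinase and its receptor, were lower. At an adjusted p-value under 0.05, 11.3% of all tested genes were lower and 12.6% were higher. FURIN, which removes the propeptide of membrane-type MMPs and MMP11, stood at 72.9 ± 5.9 CPM in control and 69.2 ± 5.9 CPM in Liq (SD, n = 2). PLAU fell by 0.38 and PLAUR fell by 0.49 on the log2 scale (adjusted p = 6.92e-05 and 1.27e-05 from edgeR).

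Of 15 tested genes that act with MMP14 or MMP2 at the cell surface or in traffic, 3 were higher, 2 were lower and 10 did not pass. By the same rule, an adjusted p-value under 0.05, 12.6% of all tested genes were higher and 11.3% were lower. ITGB3, the integrin beta chain that takes part in MMP2 docking, rose from 47.0 ± 0.6 to 109.2 ± 0.6 CPM (SD, n = 2). LRP1, an endocytic receptor that clears MMP2 and TIMP complexes, rose by 0.47 on the log2 scale, and SH3PXD2A, a scaffold of invadopodia, by 0.23 (adjusted p = 0.000132 and 0.0174 from edgeR). The tetraspanin genes CD63, whose product binds TIMP1, and CD9 were lower, by -0.43 and -0.34 (adjusted p = 3.66e-05 and 0.00175 from edgeR). CD44, CAV1, CTTN and BSG, each at 780.1 CPM or more in every sample, had log2 fold changes between -0.08 and 0.11 and did not pass.

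**Figure D5:**
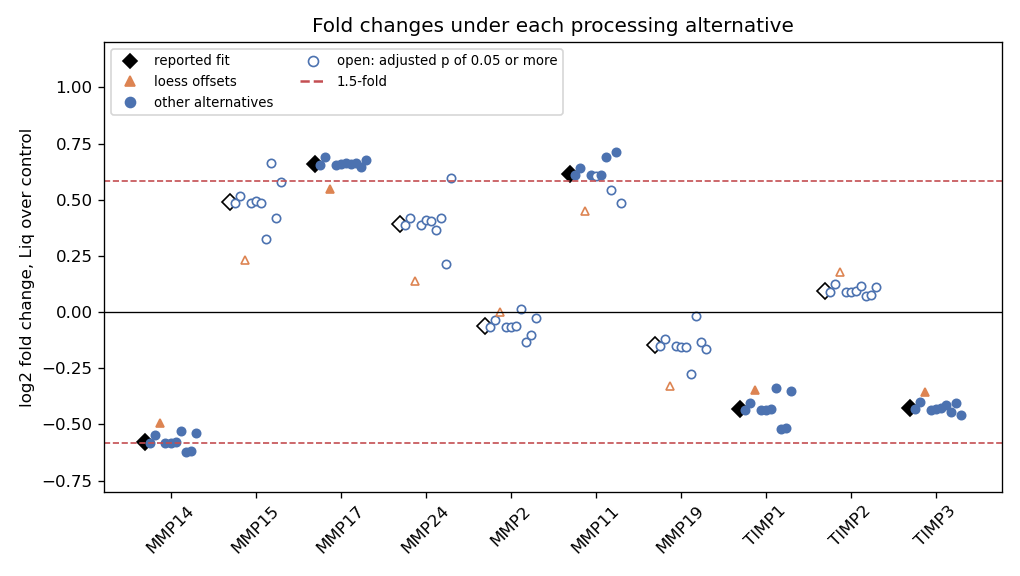
log2 fold change of Liq over control for the 10 genes under the reported fit (black diamonds), loess offsets (orange triangles) and the other 9 alternatives (blue circles), where open symbols have an adjusted p-value of at least 0.05 and dashed lines mark 1.5-fold. MMP14, TIMP1 and TIMP3 stay below 0 and MMP17 stays above 0 with filled symbols throughout, and MMP14 straddles the 1.5-fold line.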

How the data were processed

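RNA-seq of ES2 cells was analysed, with 2 control and 2 Liq samples grouped by their titles, and the dose was taken from the study's methods. The authors deposited raw counts per gene symbol, which were not normalized. Per the labels, single-end reads were processed with bcl2fastq 2.17.1.14, aligned to hg19 with TopHat2 2.0.8b and counted with HTSeq, which does not count reads with several alignments. The tally for these was 35.6% to 36.2% of the sum of gene counts and tallies in a library, which need not be their share of reads. The tallies of uncounted reads were left out of all tests.

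Counts were filtered with filterByExpr (minimum count 10, minimum total 15), scaled by TMM and tested with the quasi-likelihood test of edgeR 4.0.16 in R 4.3.3 without a replicate block. The SE is the log2 fold change divided by the square root of F. Calls used a Benjamini-Hochberg adjusted p-value under 0.05, with and without a fold change of 1.5. CPM and RPKM use the TMM-scaled totals, and RPKM the length of the canonical transcript of GENCODE 44 on GRCh37, whose symbols matched 82.4% of the listed genes. Interval bounds are at 95%.

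The members and gene lists were chosen with earlier results of these data known. Besides the members, the rule names list genes called at 1.5-fold, at most 4 per direction and list, and neighbours of members. RECK, PLAU, PLAUR, FURIN, PCSK7, LRP1, SH3PXD2A, CD63, CD9, CD44, CAV1, CTTN, BSG, COL4A1, COL4A2, FN1 and the marker genes were named after their values were seen. Alternatives were DESeq2 size factors, upper-quartile factors, loess offsets (span 0.3), no filter, the DESeq2 1.42.0 Wald test, a replicate block, each sample left out, and other thresholds. On simulated counts for 13546 genes with 200 changed between Liq and control, edgeR recovered 179 with 4 false calls at an adjusted p-value under 0.05. The simulation gave every gene the same spread beyond counting error and no shift with expression level. Its error rates therefore need not hold for the real samples. Results for some list genes are not reported here.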

Additional observations from a re-analysis of the deposited data

How the results depend on the processing

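Over all genes, 874 were called, 581 higher and 293 lower. The DESeq2 Wald test gave 566, loess offsets gave 746 (350 higher and 396 lower, or 46.9% higher against 66.5%), a fold change of at least 2 gave 328 and an adjusted p-value under 0.05 at any fold gave 3245. Among the members, 2 were called higher and 0 lower. The number called higher was 0 with loess offsets and with a fold change of at least 2, 1 with the DESeq2 Wald test, and 1 to 2 when single samples were left out. The number called lower was 3 at any fold and 0 to 1 when single samples were left out, the 1 being MMP14, without control replicate 2 and without Liq replicate 1. Without control replicate 2 or Liq replicate 2, MMP11 lost its call. With the replicate block, 898 genes were called, 601 higher and 297 lower, and the members called were MMP11 and MMP17 as before. The SE with the block was 0.041 against 0.067 for MMP14 and 0.175 against 0.176 for MMP11. The deviations of same-numbered control and Liq samples correlated at 0.0483 over all tested genes. With 2 samples per group, this value cannot show whether these samples share a culture or day, and the labels do not say. MMP2 changed sign to 0.0015 with loess offsets and to 0.013 without control replicate 1, within a range of -0.14 to 0.013 when single samples were left out. The log2 difference of each of the 7 ratios kept its direction without any single sample, which was fixed in advance because the groups did not overlap. The direction also stayed with the summed membrane-type MMPs in place of MMP14. This is no separate check, since MMP14 made up 92.8% to 96.2% of that sum. The causes were not tested. Depth limits MMP15 and MMP24, with 13 to 26 counts per sample, and 2 samples per group limit every test.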

Other observations

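Genes of matrix and surface proteins that MMP14 or MMP2 can cleave moved in both directions at an adjusted p-value under 0.05. This list had 8 tested genes, 4 higher and 3 lower, against 12.6% and 11.3% of all tested genes. TNC, which encodes tenascin C, fell from 219.8 ± 10.1 to 144.0 ± 1.2 CPM (SD, n = 2), a difference of -0.61 on the log2 scale (edgeR, adjusted p = 3.53e-07). Both chains of type IV collagen were higher with Liq, COL4A2 by 0.43 and COL4A1 by 0.28 on the log2 scale (adjusted p = 5.06e-05 and 0.00992 from edgeR). FN1, which encodes fibronectin, had a log2 fold change of -0.15 (adjusted p = 0.0237 from edgeR).

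Of the genes next to or around the members, 5 were tested, 2 were higher, 1 was lower and 2 did not pass. Of all tested genes, 24% passed an adjusted p-value under 0.05 in either direction. The higher ones were EDEM2, near MMP24, and LGALS3BP, near TIMP2, at 0.38 and 0.26 on the log2 scale (edgeR, adjusted p = 0.00142 and 0.0095).

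Of the other marker lists, all 4 mesenchymal genes were tested. SNAI2 (log2 fold change 0.38) and CDH2 (0.22) were higher and VIM (-0.28) was lower at an adjusted p-value under 0.05. ZEB1 (0.01) did not pass. By this rule, 12.6% of all tested genes were higher and 11.3% were lower. Of 6 fibroblast and mural genes, DCN and LUM had at most 1 count per sample. PDGFRA was lower (92.1 CPM in control and 78.0 CPM in Liq, log2 fold change -0.24, adjusted p = 0.0223 from edgeR). COL1A1 was higher (log2 fold change 0.17, adjusted p = 0.0457 from edgeR). ACTA2 and PDGFRB were higher by at least 1.5-fold, and ACTA2 stood at 3.42 ± 0.46 CPM in control and 6.18 ± 0.19 CPM in Liq (SD, n = 2). Both had a mean level under 10 CPM. At such levels 11.5% of tested genes were called higher by at least 1.5-fold, against 4.29% of all tested genes. Of 4 endothelial genes, 2 were tested. CDH5 stood at 51.8 ± 1.6 CPM in control and 46.4 ± 2.5 CPM in Liq (SD, n = 2) without passing the test. KDR was lower, at 2.39 CPM in control and 1.38 CPM in Liq (log2 fold change -0.79, adjusted p = 0.00603 from edgeR). PECAM1 had 10 and 5 counts in control and 2 and 2 in Liq. VWF had 7 and 2 counts in control and 1 and 1 in Liq, and neither gene was tested.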
